A study of Mus musculus with 31 samples.

Results

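RNA from the liver of wild-type mice was compared between 22 and 4 months of age, by the difference in log2 signal across all genes on the array. The animals were chosen by the array titles, which gave 6 arrays at 22 months and 5 at 4 months, 11 of the 31 arrays of the series. All came from the Ames stock. The series also holds 5 wild-type animals of 10 months and 5 dwarf animals, mutant in Prop-1, at each of 4, 10 and 22 months. The wild-type animals carried no stated treatment, each array stood for 1 animal by its title, and the labels gave no sex, diet, time of day or hybridisation date, so age cannot be told apart from any batch that went with it. A signal is the brightness of a probe set on a linear scale, and a difference is 22 minus 4 months of log2(signal + 16), with its standard error (SE). A gene was called when its adjusted p from limma, over the 15421 genes tested, was below 0.05.

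The adult liver makes most plasma proteins, oxidises fatty acids in its mitochondria, clears drugs and hormones, and houses Kupffer cells, its resident macrophages. On an inflammatory signal, hepatocytes raise the acute phase proteins, which are driven by interleukin-6 through STAT3 and C/EBP factors and by NF-kB. The respiratory chain, made of complexes I to IV and ATP synthase, turns reduced cofactors into ATP, and most of its subunits are encoded in the nucleus.

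Hepatocyte RNA dominated every array. Alb, which encodes albumin, had a signal of 48105 to 64878 at 22 months and of 58082 to 71129 at 4 months, and its difference of -0.21 ± 0.11 did not pass (adjusted p = 0.3). The summed signal of the 18 hepatocyte markers tested was 620136 to 751573 at 22 months and 586295 to 761960 at 4 months. The median signal of an array was 168.2 to 225.4 at 22 months and 166.3 to 192.8 at 4 months. On the second principal component over all 31 arrays, 22-month replicates 3 to 6 lay between -45.1 and -33.5 and all other arrays between -14.7 and 31.8. The array titled df41, 22-month replicate 2, stood apart from all 10 others on sex-linked genes, and its values are given below. The counts over all genes are therefore given with and without it.

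With all 11 arrays, 614 of 15421 genes were called, 3.98% of those tested. A fit of only the compared groups called 128, and 383 without df41. With all 11 arrays in that fit, 74 of the 111 called genes named here lost the threshold. The cause of the lower count was not tested. Of the 614 genes, 296 were higher at 22 months (1.92%) and 318 lower (2.06%). At least 2-fold changes were seen in 132 of the higher and 57 of the lower genes. Without the array titled df41, 900 genes were called (5.84%), 431 higher (2.79%) and 469 lower (3.04%). In both fits 271 genes were called higher and 292 lower, which is 91.7% of the calls made with all arrays. Before any test, the signals of the ages did not overlap for 204 genes that were higher (1.32%) and 188 that were lower (1.22%). The median difference of all genes was 0.015, and 0.025 without df41. When the arrays were centred on their medians, 152 genes were higher and 1039 lower, with the median of all genes at -0.153, while the split was 249 to 263 with quantile normalisation and 297 to 310 with the deposited values unscaled. With each gene's probe sets averaged, 350 were higher and 239 lower. The count fell to 324, 246 and 291 without 22-month replicates 3, 5 and 6, and to 325 without 4-month replicate 1. Without replicates 3 to 6 together, 13 genes were called. That fit keeps only replicate 1 and df41 at 22 months, too few to show how much rests on the others.

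The largest rise was that of Lcn2, which encodes lipocalin 2, a secreted protein that binds bacterial iron carriers and is made by hepatocytes in inflammation. Its signal was 136, 171, 203, 247 and 288 at 4 months and had a low of 1253, a median of 2210 and a high of 16800 at 22 months. All 6 old animals were above all 5 young ones, and 22-month replicate 5 was the highest. The difference was 3.82 ± 0.56, a 14.1-fold rise on this scale (adjusted p = 0.000164, limma), and 4.07 without df41. Sult1e1, the sulfotransferase that inactivates oestrogens, had signals of 29.5, 50.6, 51.7, 144 and 175 at 4 months and of 399 to 3927, with a median of 1298, at 22 months. Its groups did not overlap, the array titled df41 was the highest, and the difference of 3.66 ± 0.51 (adjusted p = 8.6e-05) was 3.30 without that array. Serpinb1a, an intracellular inhibitor of neutrophil proteases, had signals of 27.4, 31.8, 32.5, 41.7 and 130 at 4 months and of 321 to 2014, with a median of 627, at 22 months. The groups were again separate, and the difference was 3.50 ± 0.41 (adjusted p = 1.59e-05), the smallest adjusted p among the risers, and 3.19 without df41. A further Serpinb1a probe set gave a difference of 1.48 (adjusted p = 0.0147).

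Gpr37, an orphan G protein-coupled receptor, rose from signals of 17.1, 29.2, 39.8, 204 and 267 at 4 months to between 281 and 1040, median 898, at 22 months. The lowest old animal was just above the highest young one, and the difference was 2.96 ± 0.46 (adjusted p = 0.000505). Panx1, a membrane channel that releases ATP, rose by 2.04 ± 0.35 (adjusted p = 0.00127), from 33.9 to 212 at 4 months to 275 to 615 at 22 months. Tmem126b, an assembly factor of complex I, rose from 48 to 225 at 4 months to 301 to 603 at 22 months, by 1.97 ± 0.26 (adjusted p = 5.26e-05). Spaca4, a sperm acrosome membrane protein, rose by 1.88 and Setd4, a lysine methyltransferase, by 1.88. The transcript 4930448E22Rik, of no assigned function, also rose (adjusted p = 0.00958). Of 2 further probe sets of Setd4, 1 gave 2.17 and the other -0.21, the second not past the threshold. The young signals of 4930448E22Rik lay under their own array's 10th percentile on 4 of 5 arrays, so no fold is given for it. The calls of these genes held without each array in turn. Of the 15 largest rises, 4 did not hold that way, Orm2, described below, and 3 others. They were Neb, which encodes the muscle protein nebulin (2.39, adjusted p = 0.0312), lost its call without 22-month replicates 3, 4, 5 or 6 or 4-month replicates 1, 2, 3 or 4 (up to 0.0916), Toporsl (1.92, 0.0381) without 22-month replicates 3, 4, 5 or 6 or 4-month replicates 2, 3, 4 or 5 (up to 0.0947), and 4930568G15Rik (1.95, 0.0231) without 22-month replicates 5 or 6 or 4-month replicates 1 or 2 (up to 0.0739). Neb and Toporsl would not have passed the filter on low signal without the 22-month arrays, which were 4 of the 5 arrays above their 40th percentile for Neb and 4 of 8 for Toporsl, so their rises were favoured by the filter. Neb stood in the list of skeletal muscle markers, of which 1 of 6 was called, beside 1.92% of all genes called higher. The summed signal of the list was 1015 to 1773 at 22 months and 451 to 1464 at 4 months. All 15 largest rises also passed without df41, and 11 of them had groups that did not overlap, beside 1.32% of all genes in this direction. The 15 were chosen by size from these same arrays, so neither count is independent of the choice.

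**Figure D1:**
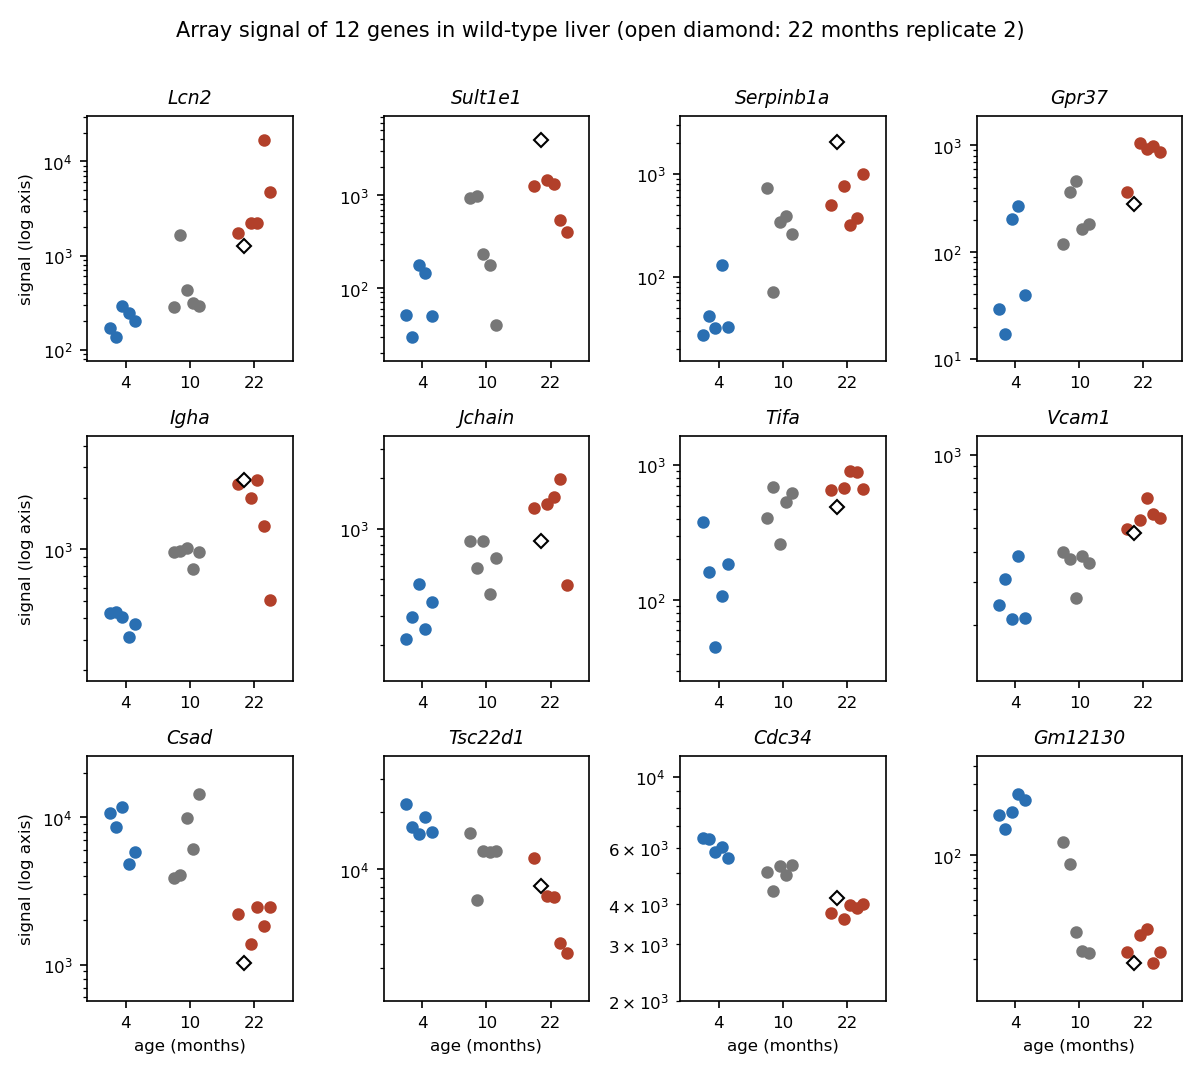
Array signal (log axis) of 12 genes in wild-type liver at 4, 10 and 22 months, 1 point per animal, with the array titled df41 as an open diamond. Lcn2 lies between 136 and 288 at 4 months and between 1253 and 16800 at 22 months, and Csad between 4809 and 11795 at 4 months and between 1019 and 2472 at 22 months.

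The falls were led by genes of low signal and by an enzyme of taurine synthesis. Csad, which decarboxylates cysteine sulfinate on the way to taurine, had signals of 4809, 5855, 8587, 10629 and 11795 at 4 months and of 1019 to 2472, with a median of 2007, at 22 months. The ages did not overlap, and the difference was -2.12 ± 0.28 (adjusted p = 5.26e-05), and -1.96 without df41. It was the 1 member called of the 16 tested in the list of methionine and taurine genes, beside 2.06% of all genes called lower. Gm12130, a transcript with no assigned function, was listed with the largest fall, from 151, 185, 196, 234 and 257 at 4 months to between 18.9 and 32.2 at 22 months (-2.45 ± 0.46, adjusted p = 0.00301). Its 22-month signals lay under the 40th percentile of every array, which was 114.6 to 159.7, and 5 of its 31 arrays passed the filter on low signal, all of them of 4 months. It had to be higher at 4 months to be tested, so neither the size nor the rank of its fall is a result. Nat8f5 was above the 40th percentile on 7 arrays, 4 of them of 4 months, and would not have been tested without these. Of the 20 falls named by size or by p, 9 had a mean signal under 114.6 at 22 months.

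Tsc22d1, a transcriptional regulator induced by TGF-beta, fell from 15354, 15712, 16673, 18796 and 21934 at 4 months to between 3612 and 11468, median 7175, at 22 months. Its groups did not overlap, the lowest signals were those of 22-month replicates 5 and 6, and the difference was -1.45 ± 0.23 (adjusted p = 0.000788). Of its 5 further probe sets, 4 had the same sign, 3 of them past the threshold, and 1 gave 0.27 (adjusted p = 0.775). Cdc34, a ubiquitin-conjugating enzyme, fell with very little spread, from 5573 to 6439 at 4 months to 3591 to 4191 at 22 months (-0.63 ± 0.09, adjusted p = 5.26e-05). Map1lc3a, an LC3 protein of autophagosome membranes, fell by 0.66 ± 0.10 on the log2 scale (adjusted p = 0.000588), and a further probe set gave -0.79 (adjusted p = 0.00289). Map2k2, the kinase MEK2, fell from 2106 to 3777 at 4 months to 841 to 2015 at 22 months (-0.98 ± 0.16, adjusted p = 0.001), while its other probe set gave -0.10 (adjusted p = 0.792). Paqr7, a membrane progestin receptor, fell by 1.33 ± 0.21 on the log2 scale (adjusted p = 0.000448).

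Supt6, a transcription elongation factor, fell from 372 to 607 at 4 months to 44.5 to 361 at 22 months (-1.75 ± 0.35, adjusted p = 0.00505). Its 3 lowest signals were those of 22-month replicates 4, 5 and 6. Rftn1, a lipid raft protein, was at 15.3 to 23.7 in 22-month replicates 3 to 6, but at 282 and 171 in replicates 1 and 2, against 127 to 281 at 4 months (-1.85 ± 0.44, adjusted p = 0.0166). Without replicates 3 to 6 its difference was 0.02. Nkain4, a protein that binds the sodium pump, fell (-2.09), as did Lrrc61 (-1.60), 1110028F11Rik (-1.97) and Lypd5 (-1.88), and these calls held without each array in turn. Nat8f5 (-2.26, adjusted p = 0.0211) lost its call without 4-month replicates 4 or 5 (up to 0.0601) and Slc34a1, a phosphate transporter (-1.74, 0.0207), without 22-month replicate 5 (0.0619). Aatk, a kinase (-1.79, 0.025), lost it without 22-month replicates 3 or 5 or 4-month replicates 1, 3 or 5 (up to 0.0683), Rtn4r (-1.69, 0.0342) without 22-month replicates 4, 5 or 6 or 4-month replicates 2, 3 or 5 (up to 0.0986), and Cd300lg (-1.59, 0.0315) without 22-month replicates 5 or 6 or 4-month replicates 2, 3 or 5 (up to 0.0811). All 15 largest falls passed without df41, and 7 of them had groups that did not overlap, beside 1.22% of all genes in this direction. As with the rises, the 15 were chosen by size from these same arrays, so these counts are not independent of the choice.

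Of the 24 acute phase genes tested, 8 were called, each of them higher at 22 months, with a median difference of 0.51 (0.52 without df41, with 10 called). Of all genes, 1.92% were called higher, with a median of 0.015. The count ran from 3 without 22-month replicate 5 to 10 without df41, and was 5 with median centring. Itih3, a heavy chain that stabilises hyaluronan, had signals of 12859, 16380, 17130, 17481 and 17933 at 4 months and of 21074 to 32659, with a median of 24998, at 22 months. The ages did not overlap, and the difference was 0.65 ± 0.12 (adjusted p = 0.00287). Its relative Itih4 rose from 22098 to 30818 at 4 months to 30313 to 48226 at 22 months (0.55 ± 0.12, adjusted p = 0.0127). Besides Lcn2, these were the acute phase calls that held without each array in turn.

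Orm2, an orosomucoid, was at 389, 431, 460, 533 and 667 at 4 months and at 695, 852, 943, 1516, 8416 and 8511 at 22 months. The groups did not overlap, but the 2 highest arrays, replicates 5 and 6, were far above the other 4, and the call (1.99 ± 0.53, adjusted p = 0.0287) was lost without 22-month replicates 5 or 6 or 4-month replicates 1, 3 or 4 (up to 0.0899). The same 2 arrays were highest for Saa1 and Saa2, serum amyloids of hepatocytes. Saa1 was at 50605 and 54323 on them, at 2531 to 11078 on the other 22-month arrays and at 2326 to 7892 at 4 months, and its difference of 1.94 ± 0.69 did not pass (adjusted p = 0.107), but did without df41 (2.42, adjusted p = 0.0301). Saa2 gave 1.89 (adjusted p = 0.113), and 2.31 without df41 (adjusted p = 0.0394). Apcs, serum amyloid P, rose by 1.21 ± 0.29 (adjusted p = 0.0166), with no overlap, from 2099 to 5204 at 4 months to 5631 to 14097 at 22 months. Its call was lost without 22-month replicate 5 or 4-month replicate 4 (up to 0.0565). Saa3, a serum amyloid made largely outside hepatocytes, rose 2.01-fold (adjusted p = 0.0244), lost without 22-month replicates 4, 5 or 6 or 4-month replicates 2 or 5 (up to 0.0684). Lbp, which binds bacterial lipopolysaccharide, rose by 0.62 (0.0304), lost without 22-month replicates 5 or 6 or 4-month replicates 2, 4 or 5 (up to 0.0937). Steap4, a metalloreductase, rose by 0.98 (0.0193), lost without 22-month replicate 5 or 4-month replicate 1 (up to 0.0759). Other well-known members did not pass: Crp gave -0.04 (adjusted p = 0.888), Hp 0.17 (0.524), Orm1 0.27 (0.376), Orm3 2.19 (0.0764) and Serpina3n 0.46 (0.0748).

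The called acute phase genes that held a C/EBP match in their 1 promoter window are shown, since the C/EBP site is the element by which many genes of this class are known to respond. The windows run from 250 bases before to 50 bases after the RefSeq start on GRCm38.p6, 5′ to 3′, with matches to TTGCNNAA (C/EBP) or TTCNNNGAA (STAT) on either strand in capitals.
Lcn2, chr2:32387690-32387989, minus strand: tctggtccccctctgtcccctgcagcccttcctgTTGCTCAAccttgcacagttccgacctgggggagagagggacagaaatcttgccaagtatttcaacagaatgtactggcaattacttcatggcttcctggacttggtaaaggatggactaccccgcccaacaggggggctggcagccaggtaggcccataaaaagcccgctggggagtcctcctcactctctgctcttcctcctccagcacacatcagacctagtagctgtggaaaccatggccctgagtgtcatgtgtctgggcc
Orm2, chr4:63362199-63362498, plus strand: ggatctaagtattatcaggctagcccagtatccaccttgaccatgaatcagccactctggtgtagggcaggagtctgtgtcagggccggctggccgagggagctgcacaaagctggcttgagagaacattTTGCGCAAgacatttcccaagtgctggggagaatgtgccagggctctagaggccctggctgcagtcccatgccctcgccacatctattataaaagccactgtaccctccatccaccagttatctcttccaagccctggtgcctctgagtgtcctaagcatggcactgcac
Saa3, chr7:46715627-46715926, minus strand: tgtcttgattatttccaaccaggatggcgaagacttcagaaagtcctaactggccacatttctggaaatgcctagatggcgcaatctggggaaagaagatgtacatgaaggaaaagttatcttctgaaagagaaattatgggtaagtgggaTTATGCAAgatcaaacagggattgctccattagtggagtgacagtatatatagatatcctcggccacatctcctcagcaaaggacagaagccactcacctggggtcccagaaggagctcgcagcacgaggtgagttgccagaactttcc
Steap4, chr5:7960222-7960521, plus strand: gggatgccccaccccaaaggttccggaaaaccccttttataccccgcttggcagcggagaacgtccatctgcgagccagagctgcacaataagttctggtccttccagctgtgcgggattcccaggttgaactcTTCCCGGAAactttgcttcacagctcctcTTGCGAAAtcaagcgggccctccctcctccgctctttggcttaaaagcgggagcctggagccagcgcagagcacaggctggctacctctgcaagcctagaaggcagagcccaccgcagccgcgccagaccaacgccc
Counted to its first base, the C/EBP match lay 216 bases before the start in Lcn2, 120 in Orm2, 99 in Saa3 and 87 in Steap4, and the STAT match of Steap4 lay 116 before it. A C/EBP match was present in 12 of 23 windows of the whole acute phase list (52.2%), in 4 of 7 windows of its called members, and in 3547 of all 32851 promoter windows (10.8%). A STAT match was present in 6 of the 23 (26.1%), 3 of the 7 and 8.3% of all windows. A match is a run of letters and not a measured binding site.

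Of the 20 genes of NF-kB signalling and chemokines tested, 3 were called, each higher, with a median of 0.48 (0.48 without df41, with 5 called), beside 1.92% of all genes called higher and 2.79% without df41. Tifa, an adaptor upstream of NF-kB, had signals of 45.5, 108, 161, 186 and 380 at 4 months and of 484 to 903, median 668, at 22 months. The groups did not overlap, and the difference was 2.14 ± 0.40 (adjusted p = 0.00287). Vcam1, an adhesion receptor for leukocytes, rose from 211, 214, 241, 309 and 382 to between 478 and 663, again with no overlap (2.01-fold, adjusted p = 0.00759). Both held without each array in turn. The chemokine Ccl6 rose by 1.19 (adjusted p = 0.0269), lost without 22-month replicate 5 or 4-month replicates 2 or 3 (up to 0.0899). Tnfaip3, the NF-kB inhibitor A20, gave 1.36 (adjusted p = 0.0583) and passed without df41 (1.51, 0.0349), as did Cxcl10 (1.31, 0.029 without df41 and 1.04, 0.11 with it). A match to the NF-kB motif, by its name alone, was found in 11 of 21 promoter windows of this list (52.4%) and in 8.46% of all windows. The share of the whole list does not depend on these arrays. Among windows of its called members the match was in 1 of 3. In the acute phase list it was in 1 of 23 windows (4.35%), and in 1 of 7 of the called members. Of the 23 interferon response genes tested, limma called 0, with a median of 0.048. At an unadjusted p below 0.05, 3 of them were higher and 1 lower.

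The clearest change among cell type markers was in 2 transcripts of antibody-secreting cells. Igha, the constant region of the immunoglobulin A heavy chain, had signals of 311, 372, 405, 426 and 435 at 4 months and of 509 to 2519, median 2183, at 22 months. All old animals were above all young ones, with replicate 6 the lowest, and the difference was 2.06 ± 0.27 (adjusted p = 5.26e-05). Further Igha probe sets gave 2.18 and 1.72, both past the threshold. Jchain, which joins immunoglobulin A units, rose from 219, 250, 293, 362 and 468 to between 462 and 1994, median 1366 (1.84 ± 0.26, adjusted p = 8.6e-05). Only 22-month replicate 6, at 462, lay within the range of the young animals. These were the 2 called of 7 plasma cell markers tested, beside 1.92% of all genes called higher, and the calls held without each array in turn. The other 5 markers did not pass, and the list's median was 0.23. Ighm, the immunoglobulin M constant region in the B cell list, gave 0.95 (adjusted p = 0.136). In bulk liver, more cells of a type and more RNA per cell cannot be told apart.

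Of the 16 macrophage markers tested, 3 were called, each higher, with a median of 0.47 (0.54 without df41, also with 3 called), beside 1.92% of all genes. The summed signal of the list was 16509 to 24582 at 22 months and 10777 to 19649 at 4 months, so the ages overlapped. Lyz2, lysozyme of myeloid cells, rose from 333, 487, 607, 670 and 1074 to between 954 and 1797 (1.11 ± 0.24, adjusted p = 0.00836) and held without each array in turn. C1qa, a complement subunit made by macrophages, rose by 1.18 (adjusted p = 0.0396), lost without 22-month replicates 3, 4, 5 or 6 or 4-month replicates 1, 2, 4 or 5 (up to 0.115). Mpeg1, a pore-forming macrophage protein, rose by 0.80 (0.0199), lost without 22-month replicate 5 or 4-month replicates 2 or 4 (up to 0.0664). The Kupffer cell markers Clec4f (0.47, adjusted p = 0.122), Adgre1 (0.27, 0.538) and Cd68 (0.53, 0.0804) did not pass. Among other leukocyte lists, S100a9, a calcium-binding protein of neutrophils, rose by 1.65 (0.0289), lost without 22-month replicates 3, 4 or 5 or 4-month replicates 1 or 2 (up to 0.0934). It was the 1 called of 10 neutrophil markers tested, with 5 differences of each sign, beside 1.92% of all genes called higher. Ncr1, a receptor of natural killer cells, fell by 1.28 (0.0323), lost without 22-month replicates 4, 5 or 6 or 4-month replicates 2, 3 or 5 (up to 0.0853). Of the 14 T and NK cell markers tested it was the 1 called, beside 2.06% of all genes called lower. It went against its list, where 11 differences were positive and the median was 0.077. H2-Ab1, of MHC class II, rose by 0.59 (0.0287), lost without 22-month replicates 3 or 5 or 4-month replicates 2 or 4 (up to 0.0684). Its list of 6 held no other call and had a median of 0.086. Without df41, this list and the T and NK cell list each had 1 called higher and 1 lower. In that fit 2.79% of all genes were called higher and 3.04% lower. Epcam, a marker of bile duct cells, rose by 0.81 (0.0209), lost without 4-month replicate 1 (0.074). It was the 1 called of 6 bile duct markers tested, whose median was 0.50, beside 1.92% of all genes called higher. The part of cell numbers in these values was not tested.

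Nuclear-encoded subunits of the respiratory chain were lower. Over complexes I to IV and ATP synthase, 25 of 73 subunits tested were called, each lower, 71 of 73 differences were negative, and the median was -0.302 (-0.364 without df41, with 37 called), beside 2.06% of all genes called lower. In complex I 12 of 34 fell (median -0.32), in complex II 2 of 4 (-0.35), in complex III 3 of 10 (-0.26), in complex IV 2 of 10 (-0.28) and in ATP synthase 6 of 15 (-0.30). The complex III list and its calls include Cycs, cytochrome c, which is an electron carrier and not a subunit. The number of complex I subunits called ran from 7, without 22-month replicate 6 or 4-month replicate 1, to 19 without df41. The falls were small. Ndufb3, an accessory subunit of complex I, had signals of 4214, 4733, 4849, 5030 and 5133 at 4 months and of 2610 to 3987, median 2896, at 22 months. The ages did not overlap, and the difference was -0.62 ± 0.11 (adjusted p = 0.00169), a 1.53-fold fall. Ndufb9 fell from 20352, 21182, 22628, 23048 and 26673 to between 14182 and 19389 (-0.46 ± 0.09, adjusted p = 0.00559). Ndufa10 had the largest fall in the complex, -0.91 ± 0.21 (adjusted p = 0.0127), from 3880 to 8381 at 4 months to 2520 to 5539 at 22 months, with overlap. Ndufa1 (-0.47) and Ndufab1, the mitochondrial acyl carrier protein (-0.42), fell as well.

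Atp5g3, which encodes a c subunit of the ATP synthase ring, had signals of 35856, 36003, 36578, 36777 and 39731 at 4 months and of 25624 to 29591, median 27822, at 22 months. The groups were far apart for their spread, with a difference of -0.42 ± 0.09 (adjusted p = 0.00557). Atp5d, the delta subunit, fell from 13537 to 17587 to between 10034 and 12187 (-0.47 ± 0.09, adjusted p = 0.00316). Uqcr10, a small subunit of complex III, fell by 0.61 ± 0.13 on the log2 scale (adjusted p = 0.00942), and Sdha, the flavoprotein of complex II, by 0.42 ± 0.10 (adjusted p = 0.0128), while further Sdha probe sets gave 0.01 and 0.23, not past the threshold. These 4, with the 5 subunits of complex I above, were the 9 of the 25 calls that held without each array in turn. Without df41, Ndufa7 (-0.47, adjusted p = 0.00949) and Ndufb10 (-0.48, adjusted p = 0.00775) were among those gained. All 5 medians were negative under quantile normalisation, median centring and no scaling, but the 25 calls became 12 with quantile normalisation, 42 with median centring, 16 without the variance trend and 4 in a fit of only the compared groups. They became 16, 13 and 12 without 22-month replicates 3, 5 and 6, and 13 and 16 without 4-month replicates 1 and 2. Without 22-month replicates 3 to 6 together limma called 0 of them, where it called 13 of all genes. Only replicate 1 and df41 then stay at 22 months, too few to show how much rests on the others.

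**Figure D2:**
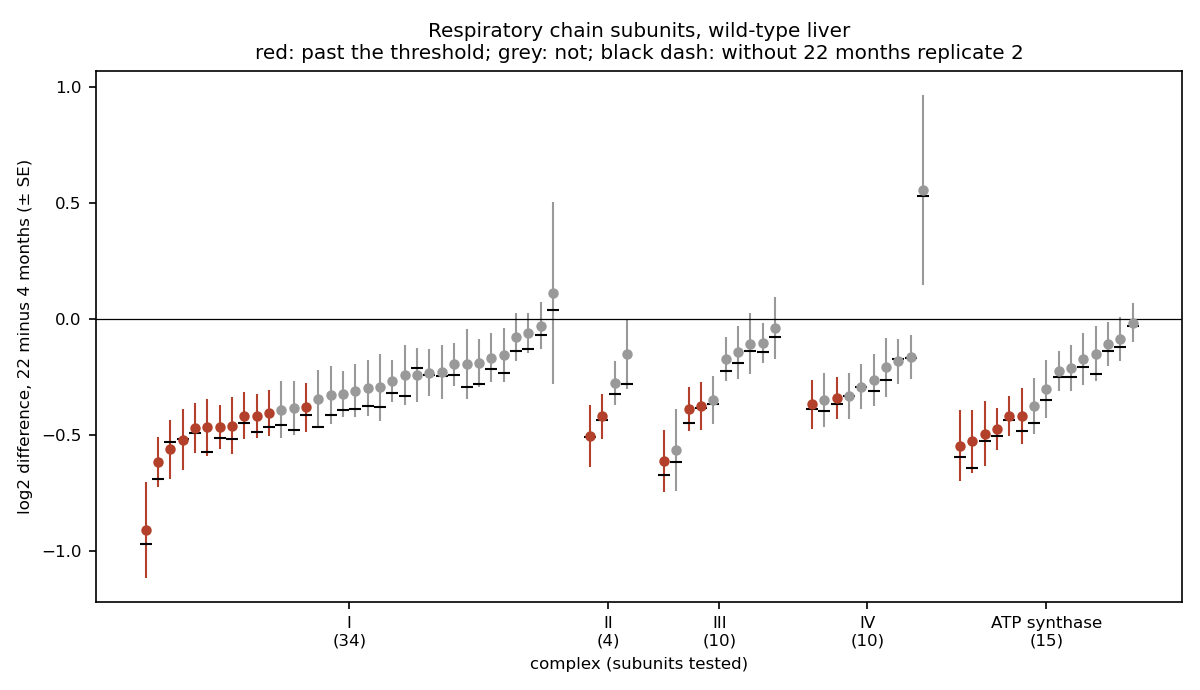
Differences (22 minus 4 months, log2, with SE) of the 73 respiratory chain subunits tested, grouped by complex, red where called. Cycs, cytochrome c, is counted with complex III. Of the 73, 71 lie below 0, and the black dashes, which leave out the array titled df41, are lower for most subunits.

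NRF1, nuclear respiratory factor 1, is known to bind many promoters of these subunits. The called members of these lists that held its core GCATGCGC in the promoter window are therefore shown, with the match on either strand in capitals.
Cycs, chr6:50566520-50566819, minus strand: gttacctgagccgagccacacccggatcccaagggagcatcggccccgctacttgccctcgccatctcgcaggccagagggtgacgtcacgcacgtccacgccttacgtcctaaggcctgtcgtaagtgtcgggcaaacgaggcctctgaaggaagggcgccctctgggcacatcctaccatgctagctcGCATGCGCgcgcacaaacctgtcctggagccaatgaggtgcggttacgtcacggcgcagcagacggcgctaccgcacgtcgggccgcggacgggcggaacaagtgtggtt
Atp5k, chr5:108434350-108434649, minus strand: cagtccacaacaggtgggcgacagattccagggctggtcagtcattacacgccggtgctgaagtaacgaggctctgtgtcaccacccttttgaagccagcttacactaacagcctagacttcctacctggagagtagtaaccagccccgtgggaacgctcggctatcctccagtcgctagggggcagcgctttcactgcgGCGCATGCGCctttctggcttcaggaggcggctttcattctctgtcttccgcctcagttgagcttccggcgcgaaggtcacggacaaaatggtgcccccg
Atp5l, chr9:44920693-44920992, minus strand: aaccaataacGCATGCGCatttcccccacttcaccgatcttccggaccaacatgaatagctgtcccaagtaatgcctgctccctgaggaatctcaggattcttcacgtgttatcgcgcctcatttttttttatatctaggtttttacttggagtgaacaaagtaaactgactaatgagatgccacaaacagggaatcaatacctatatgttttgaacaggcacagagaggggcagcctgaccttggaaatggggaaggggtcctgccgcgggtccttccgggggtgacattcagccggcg
The match was present in 3 of 24 windows of the called list members, in 11 of 70 of all members of the lists (15.7%) and in 2.71% of all promoter windows. Cycs, cytochrome c, fell by 0.37 (adjusted p = 0.0357), lost without 22-month replicates 3, 5 or 6 or 4-month replicates 1, 2 or 3 (up to 0.0948), and gave 0.10 when its probe sets were averaged. Atp5k fell by 0.55 (0.0383), lost without 22-month replicates 1, 5 or 6 or 4-month replicates 1, 3 or 4 (up to 0.112), and Atp5l by 0.53 (0.0263), lost without 22-month replicates 3, 5 or 6 or 4-month replicates 1 or 3 (up to 0.0758).

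Of the 27 genes of fatty acid oxidation tested, 6 were called, each lower, with 26 differences negative and a median of -0.37, beside 2.06% of all genes called lower and 3.04% without df41. The count was 3 with quantile normalisation, 12 with median centring, 2 without 22-month replicates 3, 5 or 6, and 16 without df41, where the median was -0.49 and all 27 were negative. Acaa1b, a peroxisomal thiolase, had signals of 39821, 39990, 40367, 41012 and 46980 at 4 months and of 18008 to 35298, median 21655, at 22 months. The highest old animal was the array titled df41, the groups did not overlap, and the difference was -0.85 ± 0.17 (adjusted p = 0.00379). Slc25a20, the carnitine carrier of the inner mitochondrial membrane, was at 7155 to 11549 at 4 months, at 5066 to 5839 on 5 of the 22-month arrays and at 11357 on df41 (-0.63, adjusted p = 0.0325, and -0.81, 0.00129 without df41). It lost its call without 22-month replicates 3, 4, 5 or 6 or 4-month replicates 1, 2 or 4 (up to 0.0919). Eci1, an enoyl-CoA isomerase, fell by 0.66 (0.0242), lost without 22-month replicates 3, 4, 5 or 6 or 4-month replicate 4 (up to 0.0664). Ehhadh, the peroxisomal bifunctional enzyme (-0.63, adjusted p = 0.0618), Acot1, an acyl-CoA thioesterase (-0.95, 0.0698), Hsd17b4 (-0.43, 0.062) and Acadl, the long-chain dehydrogenase (-0.24, 0.324), were named after their values were seen. They did not pass with all arrays, and without df41 gave -0.80 (0.00643), -1.23 (0.00844), -0.55 (0.0093) and -0.42 (0.00331). Ppara, the nuclear receptor that drives this pathway, gave -0.57 (0.114), and -0.72 (0.0276) without df41. Ppargc1a, the coactivator of mitochondrial biogenesis, gave 0.24 (adjusted p = 0.611).

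Other mitochondrial and lipid lists held fewer calls. In the TCA cycle 2 of 16 genes fell, and 3 without df41, beside 2.06% and 3.04% of all genes. They were Cs (-0.43, adjusted p = 0.0473), lost without 22-month replicates 3, 4, 5 or 6 or 4-month replicates 1, 2 or 3 (up to 0.12), and Suclg1 (-0.48, 0.0404), lost without any 22-month array but df41 or 4-month replicates 1, 2, 3 or 4 (up to 0.111). Of 34 mitochondrial ribosomal proteins 1 fell, and 3 without df41, with a median of -0.17, beside 2.06% and 3.04% of all genes. Fabp1, the liver fatty acid-binding protein, fell from 61557, 65714, 68806, 72008 and 74052 to between 46311 and 57314 with no overlap (-0.45, adjusted p = 0.0441), and lost its call without 9 of the 11 arrays left out in turn, all but 22-month replicates 1 and 2 (up to 0.0998). A further Fabp1 probe set gave -0.26 (adjusted p = 0.302). Fabp1 and Plin2, described below, were the 2 called of 27 lipid transport genes, beside 2.06% of all genes called lower. Without df41, 1 of the 27 was called higher and 3 lower, beside 2.79% and 3.04% of all genes. Pparg, a regulator of lipid storage, was at 183 to 671 at 4 months and at 49.2 to 302 at 22 months (-1.59, adjusted p = 0.0356, and -1.86, 0.00984 without df41). It lost its call without 22-month replicates 3, 4, 5 or 6 or 4-month replicates 1, 3 or 4 (up to 0.094). Of the 6 adipocyte markers tested, 1 was called lower with and without df41, beside 2.06% and 3.04% of all genes. In bile acid metabolism, Nr1h4, the bile acid receptor FXR, fell from 3352, 3418, 3440, 3498 and 3637 to between 2092 and 2798, with no overlap (-0.55 ± 0.13, adjusted p = 0.0138). It was the 1 called of 18, where 3 were called lower without df41, beside 2.06% and 3.04% of all genes.

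Among antioxidant genes 2 of 17 fell, and 5 without df41, beside 2.06% and 3.04% of all genes. Sod1, the cytosolic superoxide dismutase, was at 14806, 15172, 18083, 18875 and 21745 at 4 months and at 6537 to 16230, median 9972, at 22 months. Only 22-month replicate 1 lay within the range of the young animals (-0.82 ± 0.19, adjusted p = 0.0127). Further Sod1 probe sets gave 0.07, 0.27 and -0.53, none past the threshold. Glrx, glutaredoxin, fell by 0.45 (adjusted p = 0.0475) and kept its call only without df41 or 4-month replicate 5 (up to 0.102 without the others). A further Glrx probe set gave -0.17 (adjusted p = 0.585). Sod2, the mitochondrial form (-0.22, adjusted p = 0.177), and Cat, catalase (-0.09, 0.666), did not pass. Both subunits of the enzyme that limits glutathione synthesis fell, the 2 called of 29 in the glutathione list, beside 2.06% of all genes called lower. Gclc fell by 0.81 (adjusted p = 0.0192), lost without 4-month replicates 3 or 4 (up to 0.0601), and Gclm by 0.73 (0.0166), lost without 4-month replicates 1 or 3 (up to 0.0542). A further probe set of Gclc gave -0.53 (adjusted p = 0.14) and a further one of Gclm -0.14 (0.639), neither past the threshold. Psmb7, a catalytic subunit of the proteasome, fell from 15588 to 18483 to between 10572 and 14419 (-0.40 ± 0.09, adjusted p = 0.0128). It was the 1 called lower of 31 proteasome genes, near the 2.06% of all genes. Without df41, 4 of them were called lower and none higher, beside 3.04% of all genes called lower. Psmc1 rose by 0.40 (0.0356), and kept its call only without 22-month replicate 1 or 4-month replicate 2 (up to 0.0954 without the others).

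Metal-handling genes rose in 3 of 18 tested, and in 2 without df41, beside 1.92% and 2.79% of all genes. The list's median was 0.12, with 11 differences positive and 7 negative. Slc39a14, an importer of zinc and iron, had signals of 1648, 1915, 2022, 2074 and 2423 at 4 months and of 2504 to 4300, median 3546, at 22 months. The ages did not overlap, and the difference was 0.73 ± 0.13 (adjusted p = 0.00231). Tfr2, the iron sensor of hepatocytes, rose by 0.46 ± 0.11 (adjusted p = 0.0138). Mt2, a metallothionein, varied among the old animals more than between ages: it was at 613, 1132, 2367, 6246, 7454 and 12274 at 22 months, against 737, 748, 796, 1097 and 1315 at 4 months. Its difference of 1.76 (adjusted p = 0.0334) was 1.37 without df41 (0.062), and the call was also lost without 22-month replicates 3, 5 or 6 or 4-month replicates 1, 2 or 3 (up to 0.0984). Mt1 gave 1.47 (adjusted p = 0.164), with 22-month signals of 479 to 19154. The promoter window of Mt2 is shown because metallothionein genes are known to be induced by zinc through metal response elements. Capitals mark 4 matches to TGCACNC or TGCGCNC on either strand, which begin 223, 128 and 50 bases before the start and 4 after it.
Mt2, chr8:94172368-94172667, plus strand: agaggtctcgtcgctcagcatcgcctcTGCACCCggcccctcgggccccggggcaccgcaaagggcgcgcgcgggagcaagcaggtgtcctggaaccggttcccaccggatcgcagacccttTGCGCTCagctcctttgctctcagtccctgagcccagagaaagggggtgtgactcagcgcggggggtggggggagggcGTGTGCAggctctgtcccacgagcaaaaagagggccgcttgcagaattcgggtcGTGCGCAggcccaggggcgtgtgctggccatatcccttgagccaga
The match was found in 25.7% of all promoter windows, so a window with at least 1 match is common.

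Among hormone-linked genes, Dio1, the deiodinase that activates thyroid hormone, was at 953, 1863, 3662, 4399 and 4687 at 4 months and at 202 to 3413, median 700, at 22 months. The ages overlapped, and the call (-1.94 ± 0.53, adjusted p = 0.034) was lost without 22-month replicates 3, 5 or 6 or 4-month replicates 1, 3 or 4 (up to 0.0982). Me1, malic enzyme, fell from 9034, 10354, 14797, 19554 and 30693 to between 3049 and 8934 with no overlap (-1.50 ± 0.35, adjusted p = 0.0155), lost without 4-month replicate 4 (0.051). Slc16a10, a transporter of aromatic amino acids and thyroid hormone, rose by 0.65 (0.0396) and kept its call only without 22-month replicate 1 (up to 0.1 without the others). These were the 3 called of 15 genes responsive to thyroid hormone, beside 3.98% of all genes called in either direction, with a median of -0.215. Without df41 3 were called, each lower, beside 3.04% of all genes called lower. Of the 19 genes of growth hormone and IGF-1 signalling, limma called 0, with 1 higher and 2 lower at an unadjusted p below 0.05. Igf1 was at 15173 to 22601 at 4 months and at 13138 to 18766 at 22 months (-0.28 ± 0.26, adjusted p = 0.594), Igfals gave -0.06 (0.914) and Ghr, the growth hormone receptor, -0.31 (0.116).

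Sex-linked and sex-biased genes moved with 1 array. On the array titled df41, Xist, the RNA that coats the inactive X chromosome of females, was at 13757, and on the other 10 arrays at 349.5 to 1609. Eif2s3y, on the Y chromosome, was at 5.55 there and at 732.2 to 1264 on the others. Sult2a2 and Cyp2b13, enzymes known to be higher in females, were at 29009 and 15850 on df41, against at most 62.5 and 328 on the other 22-month arrays. Hsd3b5, Cyp4a12a and Cyp2d9, known to be higher in males, were at 11.3, 228 and 605 on it. Hsd3b5 was also low in 4-month replicate 4, at 507 against 10695 to 17418 on the other young arrays. Igf1, at 18766 on df41, lay within the range of young wild-type animals and above the 3049 to 10820 of dwarf animals of 22 months. In those dwarf animals Cyp2b13 was at 12517 to 17835 and Hsd3b5 at 8.58 to 22.6, ranges that held the values of df41. Sult2a2 was at 9489 to 27525 in them, Cyp4a12a at 356 to 3933 and Cyp2d9 at 4713 to 6673, ranges that did not. What set df41 apart was not tested. The median of the 19 male-biased genes tested was -0.47 with the array and -0.14 without it, and that of the 16 female-biased genes 0.41 and -0.016. Of the male-biased genes limma called 0 with all arrays, with 5 lower at an unadjusted p below 0.05, and 1 without df41, Cyp2d9 (-0.52, adjusted p = 0.025). Of the female-biased genes 1 was called, beside 1.92% of all genes called higher. It was Cyp3a44 (1.82, adjusted p = 0.032, and 1.19, 0.0383 without df41), at 4449 on df41 and at 199 to 401 on the other old arrays. Its call was lost without 22-month replicates 5 or 6 or 4-month replicates 2, 3 or 4 (up to 0.0812).

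**Figure D3:**
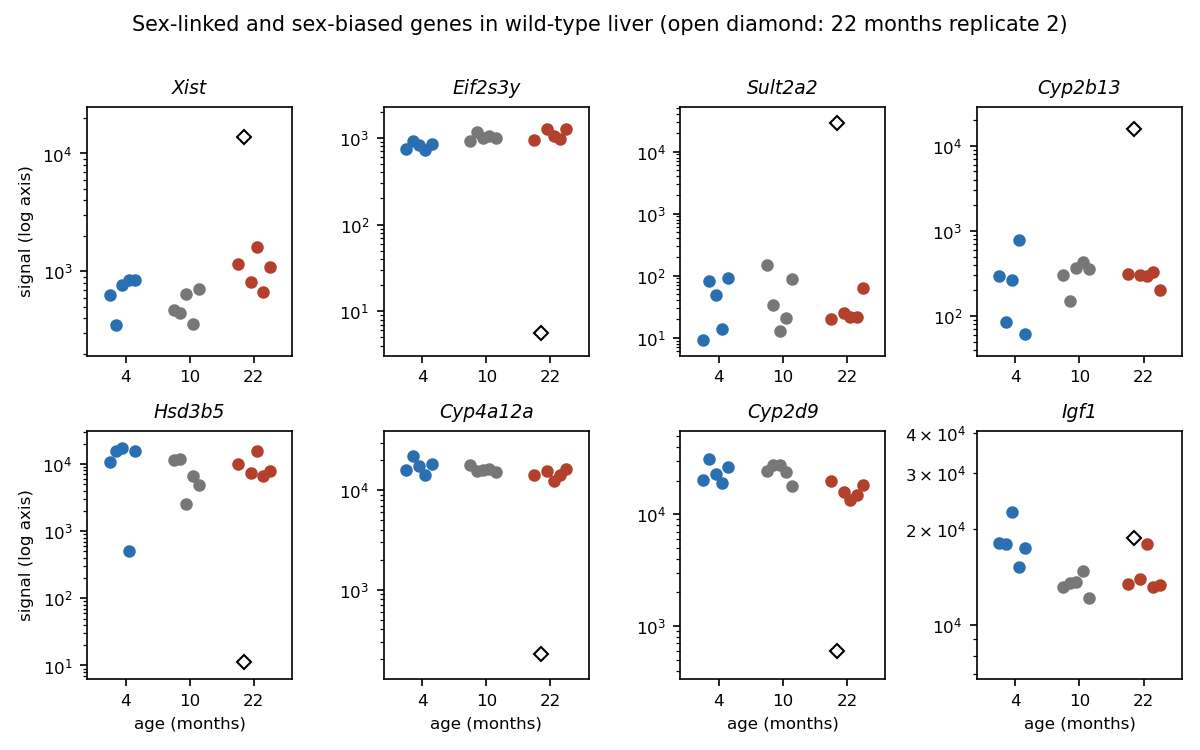
Array signal (log axis) of 8 sex-linked, sex-biased or growth hormone-linked genes in wild-type liver at 4, 10 and 22 months, 1 point per animal. The open diamond is the array titled df41, at 13757 for Xist and 5.55 for Eif2s3y, apart from all others.

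**Figure D4:**
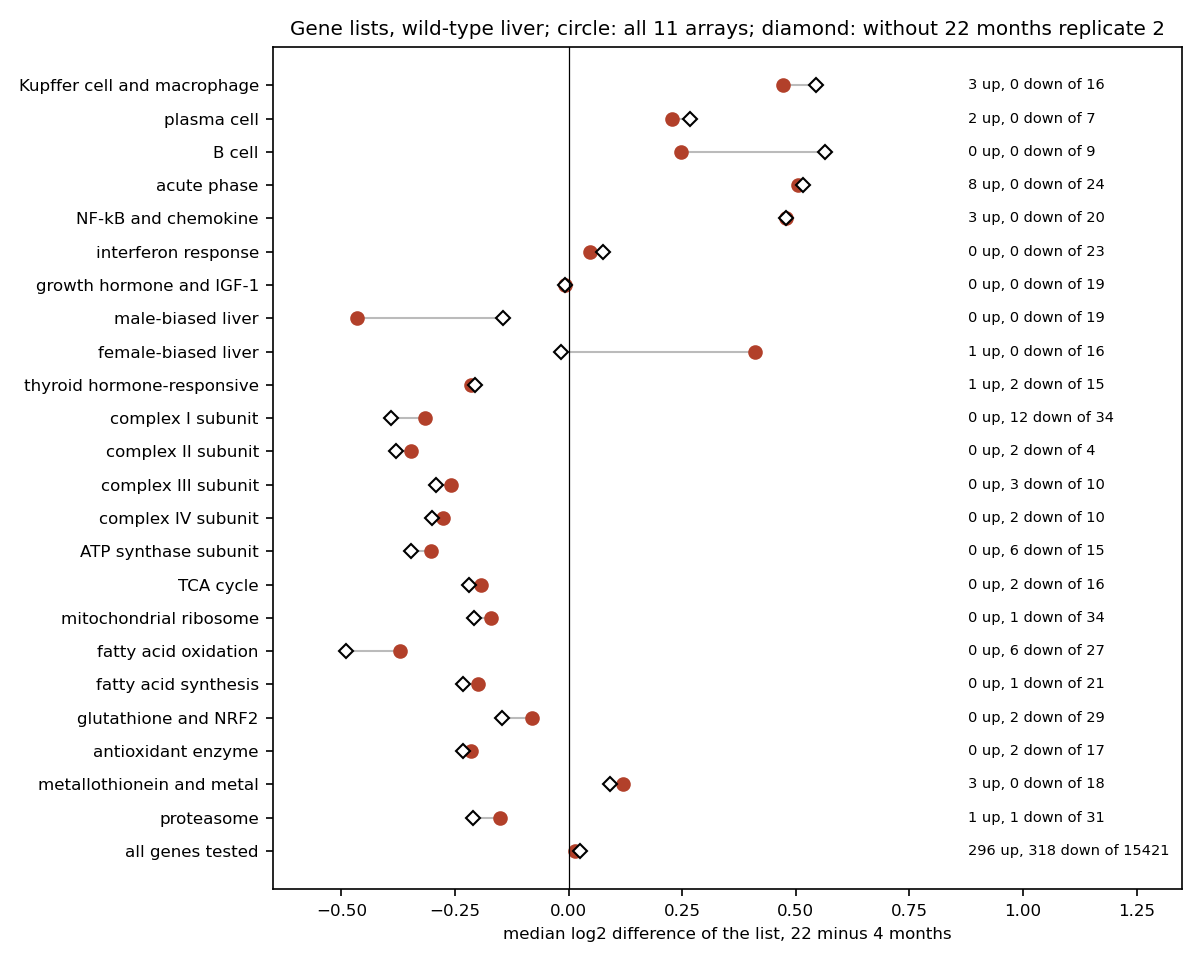
Median difference (22 minus 4 months, log2) of 23 gene lists and of all genes, with all 11 arrays (circles) and without the array titled df41 (diamonds), and the number of members called. The acute phase list lies at 0.51 and 0.52 and the complex I list at -0.32 and -0.39, while the male-biased list moves from -0.47 to -0.14.

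Animals of 10 months were set against the same young arrays, so their differences are not independent of those above. Serpinb1a was 2.31 above 4 months (adjusted p = 0.0532), Tmem126b 1.49 (0.0532) and Igha 1.24 (0.226), while Csad was at -0.22 (0.9) and Lcn2 at 1.09 (0.692).

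In dwarf 22-month replicate 1, Xist was at 7406 and Eif2s3y at 21.6, and the dwarf values and tests between genotypes below include that array. Dwarf animals, whose arrays are not shared with the comparison, were called in fewer genes between 4 and 22 months: 87 higher (0.564%) and 98 lower (0.635%). Of these, 12 were also called higher in wild type, 4.05% of the wild-type and 13.8% of the dwarf risers, 21 were called lower in both, 6.6% and 21.4%, and 0 were called in opposite directions. Lcn2 rose in dwarf as well, by 2.75 (adjusted p = 0.0111), Tifa by 2.21 (0.00477) and Saa3 by 1.33 (0.00789). Among respiratory subunits 21 were called lower in dwarf, 10 of them also in wild type, 40% of the wild-type and 47.6% of the dwarf calls. Atp5g3 fell in dwarf by 0.50 on the log2 scale (adjusted p = 0.0022), Atp5d by 0.46 (0.00955) and Acaa1b by 0.88 (0.00642). The change itself differed between genotypes for 60 genes (0.389%), of which 28 were called in wild type, and for 97 genes without df41. The 60 fell to 23 without 22-month replicate 3, 24 without replicate 5, 30 without 4-month replicate 1 and 24 without replicate 5. Csad gave 0.22 in dwarf (adjusted p = 0.843), and the dwarf change less the wild-type change was 2.34 (adjusted p = 0.00504). Cdc34 gave 0.05 in dwarf and a difference of changes of 0.68 (0.00637), Tsc22d1 0.07 and 1.52 (0.0356), and Gpr37 -0.64 and -3.59 (0.00894). Among the 36 genes named by size or p, 3 were called in dwarf, Lcn2, Tifa and Pparg, and 7 had a change that differed between genotypes. The 36 were chosen by their wild-type change, which the test between genotypes also uses. The count of 7 is therefore not independent of that choice. For the rest of the 36, a missed threshold in dwarf does not show a difference.

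**Figure D5:**
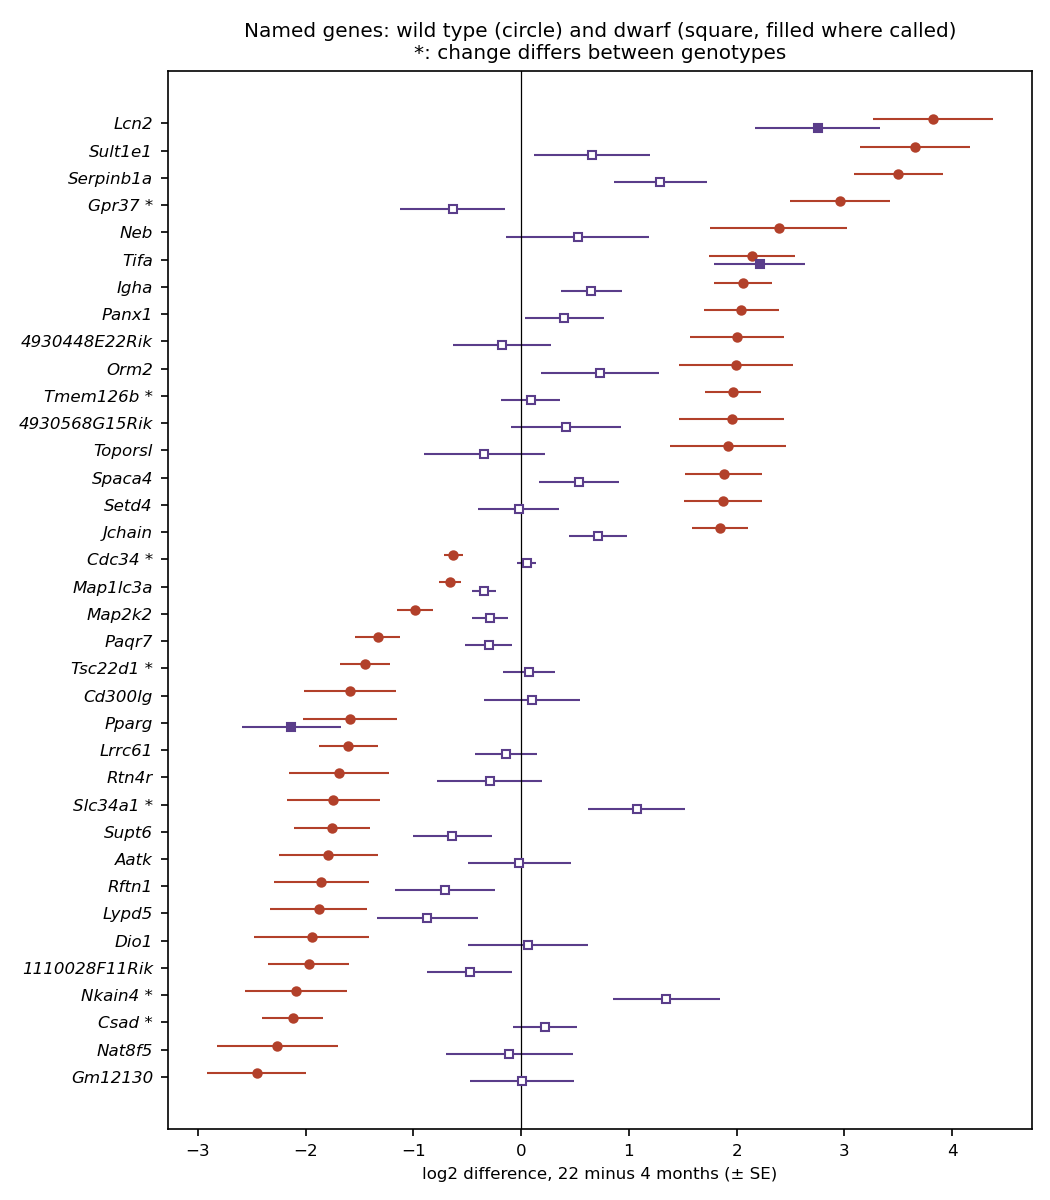
Differences (22 minus 4 months, log2, with SE) of the 36 genes named by size or p, in wild type (circles) and dwarf (squares, filled where called). Stars mark the 7 genes whose change differed between genotypes, among them Csad at -2.12 in wild type and 0.22 in dwarf. The genes were chosen by their wild-type change, which the starred test also uses.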

How the data were processed

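Total RNA of snap-frozen liver was hybridised as biotin-labelled cRNA to Affymetrix arrays, per the labels' protocols. The deposited intensity values are linear signals made with MAS5, a tool named in the submitters' processing notes, and its version is not given in the sources used here. A free-text label names a fly tissue, and the organism, source and title fields were used instead. Each array was rescaled to a 2% trimmed mean of 500. Probe sets above the 40th percentile of their own array on at least 5 arrays were kept, and the one of highest mean stood for its gene. All 31 arrays in 6 groups were fitted with limma 3.58.1 in R 4.3.3 (lmFit, contrasts.fit, eBayes with trend) on log2(signal + 16), two-sided, with Benjamini-Hochberg adjustment, after a test on simulated data. The p-values measure the spread between arrays. Genes were named as the 15 largest rises and falls, the 6 smallest p in each direction, list members called, and well-known members not called; genes called only without df41 were chosen after their values were seen. Members, lists and groups were chosen with earlier results of these data known. Promoter windows are RefSeq's, on GRCm38.p6, for 124 of 151 named genes; those shown were chosen because the gene was called, had 1 window and held a match. 3 further motifs (an E-box, an antioxidant response element and a nuclear receptor half-site pair) were searched and dropped after their shares were seen.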

Additional observations from a re-analysis of the deposited data

Results flagged for a closer look

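Among the genes named, 302 groups of 5 or 6 arrays were examined for 1 array far from the others, and 38 had one. Chance flags about 1 in 20 groups, but the sex-linked and sex-biased genes, and those called only without df41, were named because of that array, so the count cannot be read against it. On 17 of them the array was the one titled df41. It was high for Xist (signal 13757), Sult2a2 (29009), Sult3a1 (8045), Cyp2b13 (15850), Cyp3a44 (4449), Ndufb2 (10568), Suclg1 (8001), Slc25a20 (11357), Acot1 (1930) and Acadl (8438). It was low for Eif2s3y (5.55), Hsd3b5 (11.3), Cyp4a12a (228), Elovl3 (447), Cyp2d9 (605), Slco1a1 (671) and Saa3 (346). Replicate 4 at 4 months was apart for 10, with high signals of Serpinb1a (130), Acaa1b (46980) and Eci1 (7391) and low ones of Itih3 (12859), Serpinf2 (10974), Slc16a10 (833), Etfb (12610), Hsd3b5 (507), Slco1a1 (3754) and Hp (28791). Replicate 5 at 4 months was high for Neb (159) and Ass1 (1243) and low for Cyc1 (14247), replicate 2 at 4 months was high for Cycs (23525), Atp5g3 (39731) and Atp5j (21486), and replicate 1 at 4 months was high for 4930448E22Rik (164). At 22 months, replicate 1 was high for Cs (3933) and low for Psmc1 (2032) and Sod2 (6358), and replicate 5 was high for Lbp (6715).

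The change with age differed between genotypes, by limma's interaction test, for 10 named genes. All but Igf1 and Igfals were named because of their wild-type change, which that test also uses. The dwarf change less the wild-type change, on the log2 scale, was -3.59 for Gpr37, -1.88 for Tmem126b, -0.76 for Itih3, 0.68 for Cdc34, 1.52 for Tsc22d1, 1.65 for Igf1, 1.92 for Igfals, 2.34 for Csad, 2.81 for Slc34a1 and 3.44 for Nkain4.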

How the results depend on the processing

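The number of genes called, 614, was 1191 with median centring (152 higher, 1039 lower) and 2543 with median centring and without df41 (2324 lower). Each probe set on its own gave 1023, of which 548 were higher, and the fit without a variance trend gave 197 lower. A fit of only the compared groups gave 128 (68 higher, 60 lower), and without df41 383 (172 higher, 211 lower), an alternative added after seeing the data. Without 22-month replicates 3 to 6 together, which keeps only replicate 1 and df41 at 22 months, 13 were called (6 higher, 7 lower). With 1 array left out in turn the count ran from 246 to 900, higher genes from 120 to 431 and lower genes from 126 to 469. The 60 genes whose change differed between genotypes became 34 with quantile normalisation, 37 with the mean of probe sets, 22 without the trend, 5 without replicates 3 to 6, 205 with median centring and without df41, 94 without df41 and 4-month replicate 4 (also added later), and 23 to 97 with 1 array left out. Leaving out the 4 arrays whose Xist signal passed 5000 gave 817 genes called. These were df41, dwarf 22-month replicate 1 and dwarf 10-month replicates 1 and 4. The limit was set on this probe set after seeing the data. Over 111 named genes and their alternatives, 2501 of 3209 fits kept direction and threshold, 705 lost the threshold and 3 changed sign: Rftn1 to 0.02 without replicates 3 to 6, and Cycs to 0.10 and Rora to 0.01 with the mean of probe sets. The causes of these shifts were not tested. No paired analysis was made, because each array was a different animal by its title. Signals near the low end of the scale limit the size of a fall.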

Other observations

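Other list members were called as well. Got1, the cytosolic aspartate aminotransferase, rose from signals of 4014, 4801, 4854, 4897 and 6060 at 4 months to between 5024 and 12046 at 22 months (0.76, adjusted p = 0.0161, limma), and held without each array in turn. It was the 1 called of 12 gluconeogenesis genes tested, beside 1.92% of all genes called higher. Tfb2m, a mitochondrial transcription factor, fell by 0.76 on the log2 scale (adjusted p = 0.0184), lost without 22-month replicates 5 or 6 (up to 0.0598). Of the 12 mitochondrial biogenesis genes tested, 1 was called lower, and 2 without df41, beside 2.06% and 3.04% of all genes. Tfb2m went against its list, whose median was 0.027, with 7 differences positive and 5 negative. Plin2, which coats lipid droplets, fell from between 18416 and 35867 to between 10717 and 17167 with no overlap (-0.71, adjusted p = 0.0383), lost without 22-month replicates 3, 4, 5 or 6 or 4-month replicates 1, 3 or 4 (up to 0.116). With Fabp1 above, it made up the 2 called of 27 lipid transport genes, beside 2.06% of all genes called lower.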
